A study of Mus musculus with 4 samples.

Results

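The B56 genes Ppp2r5a, Ppp2r5b, Ppp2r5c, Ppp2r5d and Ppp2r5e encode the alpha, beta, gamma, delta and epsilon members of one family of regulatory subunits of the phosphatase PP2A. All 5 were taken by name from the 21779 protein-coding genes used, and every called peak that overlapped a gene body or the 1 kb on either side of it was kept, those of the control antibody included. They were examined in 4 CUT&Tag libraries of haematopoietic stem cells that were isolated from mouse bone marrow and carried Ppp2ca in its wild-type form, 2 made with an antibody to PPP2CA (PPP2CA 1 and 2) and 2 made with immunoglobulin G (IgG 1 and 2). CUT&Tag uses an antibody to tether a transposase, which inserts adapters into the DNA nearby. No other genotype or treatment was compared, the age of the animals and the number of animals behind a library are not given in the sources used here, and the labels leave unsaid whether the libraries with the same antibody stem from different animals.

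PP2A is a serine/threonine phosphatase made of a catalytic subunit (PPP2CA or PPP2CB), a scaffold subunit and one of several regulatory subunits, which choose the substrate. B56 subunits recognise a short linear motif in their partners, and are known for guarding sister chromatid cohesion at centromeres with shugoshin, for acting at kinetochores with BubR1, and for acting on Wnt signalling, MYC and p53. Reduced PP2A activity is a known feature of several human leukaemias. The regions below are places in the DNA marked with the PPP2CA antibody at the genes of these subunits, and say nothing on the amount of the subunits or on their binding to PPP2CA protein.

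PPP2CA 1 and 2 held 16811 and 17686 peaks, and IgG 1 and 2 held 561 and 310. The median peak summit was covered by 18 fragments in each PPP2CA library and by 4 in each IgG library, and the lowest local background, taken as the background of the whole genome, was 9.34 to 9.61 times higher in PPP2CA than in IgG. These backgrounds are taken as those of each library, since the labels do not say whether IgG served as a control in peak calling, and the scaled ratios below rest on that reading. An IgG peak was never called below 3 summit fragments, so at a weak place its absence shows little. A region was called replicated when merged peaks of both PPP2CA libraries touched, which gave 12631 regions. Of 10 stem cell marker genes 5 had a replicated region (Kit, Mecom, Meis1, Runx1 and Tal1; none at Procr, Slamf1, Cd34, Hlf and Gata2), and of 13 markers of other blood or stromal cells 1 had one, the erythroid factor gene Klf1, against 45.9% of all protein-coding genes. A region is no measure of expression.

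All 5 B56 genes carried a replicated PPP2CA region, and in each of them a region spanned the boundary of the gene. The same mark was present at 45.9% of protein-coding genes (10003 of 21779), and at 53.8% of those at least as long as Ppp2r5b, the shortest of the 5. A replicated region within 1 kb of a boundary was present at 40.2% of protein-coding genes. With 2 libraries a group and 5 genes no test was made of this count. There were 8 replicated regions in all, 4 of them at Ppp2r5c and 1 at each of the others. Of the 5 regions across a boundary, those at Ppp2r5a, Ppp2r5b and Ppp2r5d lay at the start of the gene, as did that at Ppp2r5c, by the RefSeq start sites of GRCm38.p6. Ppp2r5e had no entry in the table of starts, and its region lay across the high-coordinate boundary.

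The sequences around the marked starts are shown because the regions fell on them and because the starts differ in base composition. Each runs from 250 bases before to 50 bases after a RefSeq start (GRCm38.p6), on the strand of the gene. Table entries existed for 4 of the 5 genes. Ppp2r5d has 2 nearly coincident starts, and the window of the outer one is given. Capitals mark exact matches on either strand to GGGCGG (the GC box), to CCAAT (the CCAAT box), to TATAAA (the TATA box), to CGGAAG (the core of ETS motifs), to TGACGT (part of the CRE), to CACGTG (an E box) or to TGANTCA (the AP-1 motif).
Ppp2r5a, chr1:191396992-191397291, minus strand: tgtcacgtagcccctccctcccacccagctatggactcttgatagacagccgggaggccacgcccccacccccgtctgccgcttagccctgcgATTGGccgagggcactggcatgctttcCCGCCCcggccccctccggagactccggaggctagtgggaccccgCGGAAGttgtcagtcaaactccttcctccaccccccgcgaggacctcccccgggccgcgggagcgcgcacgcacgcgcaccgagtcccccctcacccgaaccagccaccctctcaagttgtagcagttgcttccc
Ppp2r5c upstream start, chr12:110447272-110447571, plus strand: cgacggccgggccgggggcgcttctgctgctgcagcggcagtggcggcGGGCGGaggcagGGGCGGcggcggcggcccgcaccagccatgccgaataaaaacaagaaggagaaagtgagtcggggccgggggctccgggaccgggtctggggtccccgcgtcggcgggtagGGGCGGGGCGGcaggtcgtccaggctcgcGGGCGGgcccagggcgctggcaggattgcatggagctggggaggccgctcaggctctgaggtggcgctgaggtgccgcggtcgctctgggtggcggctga
Ppp2r5c internal start, chr12:110485547-110485846, plus strand: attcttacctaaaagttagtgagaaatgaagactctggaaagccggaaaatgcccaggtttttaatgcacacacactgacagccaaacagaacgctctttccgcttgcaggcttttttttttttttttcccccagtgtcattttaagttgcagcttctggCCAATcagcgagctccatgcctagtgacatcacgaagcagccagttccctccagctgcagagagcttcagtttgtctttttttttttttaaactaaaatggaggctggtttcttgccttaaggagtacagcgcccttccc
Ppp2r5d, chr17:46704977-46705276, minus strand: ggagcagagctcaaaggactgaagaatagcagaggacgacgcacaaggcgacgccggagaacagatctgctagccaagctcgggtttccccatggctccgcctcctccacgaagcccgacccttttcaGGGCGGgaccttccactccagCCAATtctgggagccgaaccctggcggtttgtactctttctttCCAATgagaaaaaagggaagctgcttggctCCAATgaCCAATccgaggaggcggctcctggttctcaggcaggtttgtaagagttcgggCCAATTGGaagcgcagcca
Ppp2r5b, chr19:6235791-6236090, minus strand: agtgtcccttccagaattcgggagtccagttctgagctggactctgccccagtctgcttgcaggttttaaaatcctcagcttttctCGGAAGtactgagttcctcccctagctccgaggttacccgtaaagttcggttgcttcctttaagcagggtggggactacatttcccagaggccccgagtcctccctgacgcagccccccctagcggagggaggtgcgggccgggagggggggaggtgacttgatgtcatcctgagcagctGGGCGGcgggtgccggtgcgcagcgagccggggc

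Of the 6 start windows of these genes, 5 lay wholly and 1 (the upstream start of Ppp2r5c) lay for 261 of its 300 bases inside a replicated region. The summits of the PPP2CA peaks in these regions all lay outside the windows. Among all 21263 start windows of protein-coding genes, 39.1% were touched by one. The windows at the upstream Ppp2r5c start and at Ppp2r5a were rich in the dinucleotide CG, with 36 and 25, against a median of 24 over the 8312 windows in replicated regions and 5 over the others. The windows shown for Ppp2r5b and Ppp2r5d held 16 each. The internal Ppp2r5c start held 6, at a GC content of 44.3%. Of all windows with 6 or fewer CG, 3.81% (289 of 7590) were touched by a replicated region, against 69.5% of those with 16 or more. The region at this internal start also holds start windows of the noncoding RNA gene Gm19605, with 9 and 8 CG at a GC content of 47.0% and 52.7%.

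GGGCGG was present at every start shown except the internal one of Ppp2r5c, in 5 places at the upstream start of that gene, where a pair of the matches overlap. It occurs in 46.2% of all start windows and in 72.1% of those in replicated regions. CCAAT, which occurs in 38.2% and 39.4% of them, was found at Ppp2r5a, at the internal start of Ppp2r5c and in 6 places at Ppp2r5d, a pair of which overlap on opposite strands. CGGAAG (21.1% and 37.6%) was found at Ppp2r5a and Ppp2r5b. TATAAA (12.6% and 5.34%), TGACGT (8.49% and 14.4%), CACGTG (7.84% and 11.1%) and TGANTCA (6.99% and 3.75%) had no match in these windows.

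The 5 genes fell into a high pair, a middle gene and a low pair by the height of their best region. Ppp2r5a, whose product is known from human cells to promote the loss of a phosphorylation that stabilises MYC, had 204 summit fragments in PPP2CA 1 and 235 in PPP2CA 2. Ppp2r5c had 191 and 196 fragments at its upstream start. Its product is known to direct PP2A to p53 after DNA damage in human cells. Ppp2r5e, whose product is known for a part in Wnt signalling in Xenopus, had 47 and 53 fragments.

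Ppp2r5d, in which variants are known to cause a human neurodevelopmental disorder, had 27 and 31 fragments. Ppp2r5b, known for an expression highest in brain and for acting on AKT, had 27 and 27 fragments. Neighbours in this order were compared within each library by the ratio of their fragments with an exact 95% interval, which covers counting error only. The order was set by the same fragments, so the ratios lean above 1 by choice and the intervals are no test of the order. The ratio of Ppp2r5a to Ppp2r5c was 1.07 (0.872 to 1.31) in PPP2CA 1 and 1.2 (0.988 to 1.46) in PPP2CA 2, so these neighbours did not differ beyond counting error.

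Ppp2r5c stood 4.06 times (2.94 to 5.72) above Ppp2r5e in PPP2CA 1 and 3.70 times (2.72 to 5.11) in PPP2CA 2. Ppp2r5e stood 1.74 times (1.06 to 2.91) and 1.71 times (1.08 to 2.76) above Ppp2r5d in the same libraries. Ppp2r5d and Ppp2r5b could not be told apart, at a ratio of 1.00 (0.564 to 1.77) and 1.15 (0.663 to 2.0). The highest and lowest genes of the family differed several-fold in both PPP2CA libraries.

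**Figure D1:**
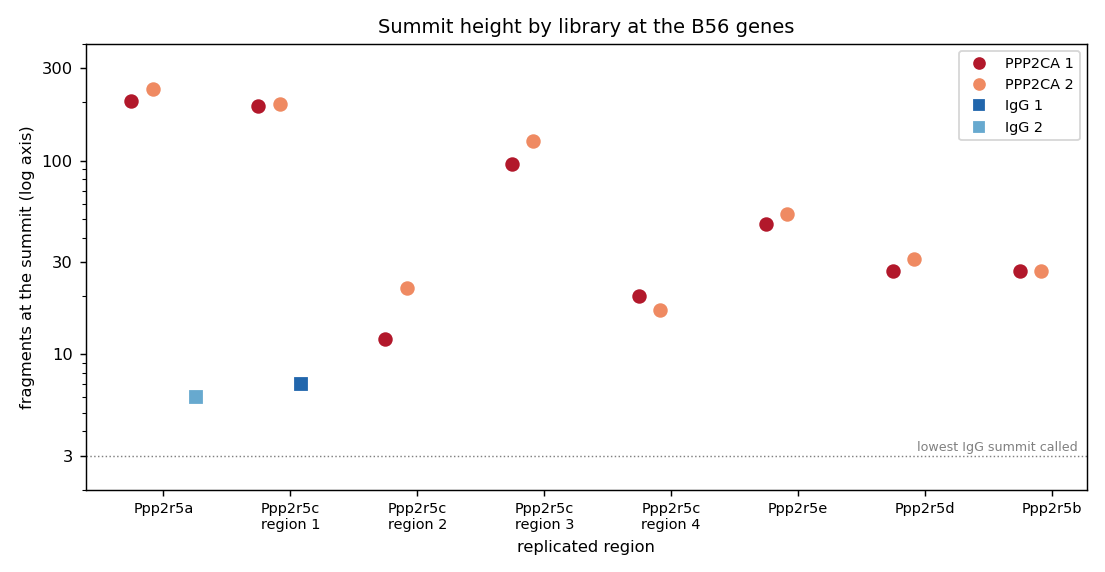
Fragments covering the summit of each of the 8 replicated regions (log axis), with circles for PPP2CA 1 and 2 and squares for IgG 1 and 2, drawn only where a peak was called. The PPP2CA points are highest at the best regions of Ppp2r5a and Ppp2r5c (191 to 235) and lowest at regions 2 and 4 of Ppp2r5c (12 to 22), and the only IgG points are 6 and 7 fragments.

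The PPP2CA libraries were close in height at the best region of each gene, and less so at the weak regions of Ppp2r5c. After scaling by the lowest backgrounds, PPP2CA 2 over PPP2CA 1 was 1.13 (95% exact interval 0.931 to 1.37) at Ppp2r5a, 0.98 (0.553 to 1.74) at Ppp2r5b, 1.12 (0.65 to 1.96) at Ppp2r5d and 1.10 (0.732 to 1.67) at Ppp2r5e. At the 4 regions of Ppp2r5c it was between 0.833 (0.41 to 1.67) and 1.80 (0.851 to 3.98). The interval included 1 at all 8 regions, although at the weak ones it was too wide to exclude a difference of 2 times or more. Over all 12631 replicated regions the median of this ratio was 1.06 and the 5th to 95th percentiles were 0.70 and 1.59. No difference beyond counting error was detected at these places, which does not show that there was none, and values are given per library, without a mean or SD.

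The fragments were recovered in part from the authors' fold of a summit over its local background, so that fold is no independent measure. It followed the same order. It was 12.9 in PPP2CA 1 and 13.6 in PPP2CA 2 at Ppp2r5a, and 12.7 and 12.3 at the upstream start of Ppp2r5c. It was 9.41 and 10.0 at Ppp2r5e, 7.50 and 6.57 at Ppp2r5d, and 6.01 and 5.54 at Ppp2r5b, against a median of 5.61 and 5.53 over the 2 lists. Ranked by −log10 q, the Ppp2r5a peak was number 154 of 16811 in PPP2CA 1 and number 127 of 17686 in PPP2CA 2. The Ppp2r5b peak was number 6032 and 6810.

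Among the 10003 marked protein-coding genes, ranked by their best region, Ppp2r5a was number 140 (the top 1.40%), Ppp2r5c number 189 (1.89%), Ppp2r5e number 2252 (22.5%), Ppp2r5d number 4766 (47.6%) and Ppp2r5b number 5940 (59.4%). The family thus ranged from near the top to below the middle of marked genes. The median over the 5 genes was 100 fragments summed over both PPP2CA libraries (54 to 439), against 61 over all marked genes.

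**Figure D2:**
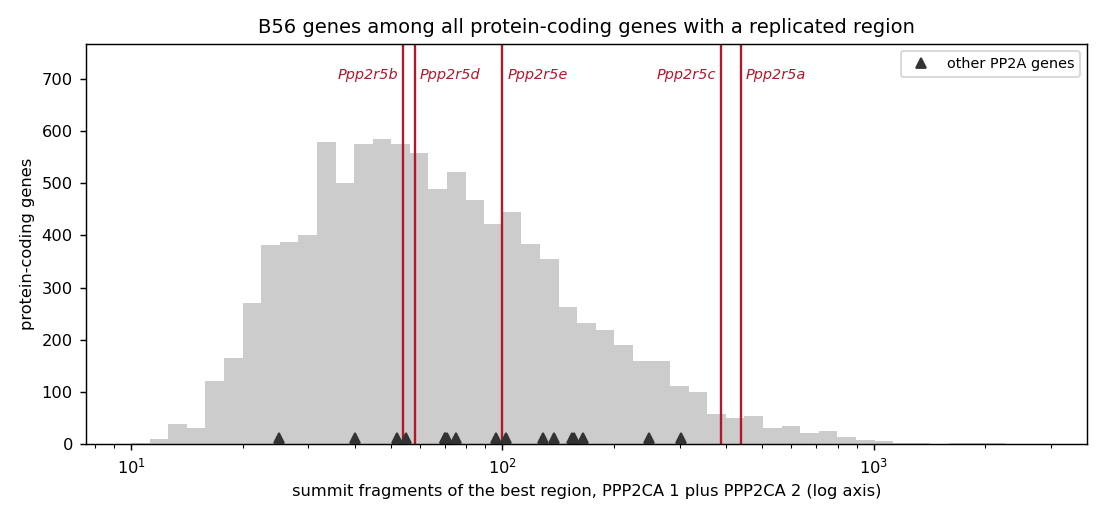
Number of protein-coding genes (vertical axis) by the summit fragments of their best replicated region, summed over PPP2CA 1 and 2 (log axis), with the B56 genes as red lines and the other PP2A genes as triangles. Ppp2r5a (439) and Ppp2r5c (387) lie in the upper tail, to the right of every other PP2A gene, and Ppp2r5b (54) and Ppp2r5d (58) lie at the bulk of the distribution.

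Ppp2r5a is on chromosome 1 at 191351981 to 191397041, on the minus strand. Its region at 191396549 to 191397850 was 1302 bp wide, against a median of 932 bp over all replicated regions. The summits of PPP2CA 1 and 2 lay 370 and 311 bp upstream of the start. The rest of the gene, 45.1 kb in all, held no other peak of any library.

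Ppp2r5d, on chromosome 17 at 46682991 to 46705026, and Ppp2r5b, on chromosome 19 at 6227765 to 6236264, are both on the minus strand. The Ppp2r5d region at 46704290 to 46705563 was 1274 bp wide, nearly as wide as that of Ppp2r5a, although its summits were much lower. Its summits lay 150 and 246 bp downstream of the outer start in PPP2CA 1 and 2. A start of Gm52314, on the plus strand at 46705625, lay just outside this region, 749 and 845 bp from the same summits. The Ppp2r5b region at 6235541 to 6236374 was 834 bp wide, the narrowest of the 5 at a boundary. Its summits lay 306 and 343 bp upstream of the RefSeq start in the table, and 118 and 81 bp inside the outermost boundary of the gene.

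Ppp2r5e is the longest of the 5, on chromosome 12 at 75449463 to 75596237. Its region at 75595758 to 75596806 was 1049 bp wide, with summits 159 and 286 bp outside the boundary in PPP2CA 1 and 2. In its remaining length there was 1 peak, at 75455983 to 75456337, called in PPP2CA 2 alone with 7 fragments.

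**Figure D3:**
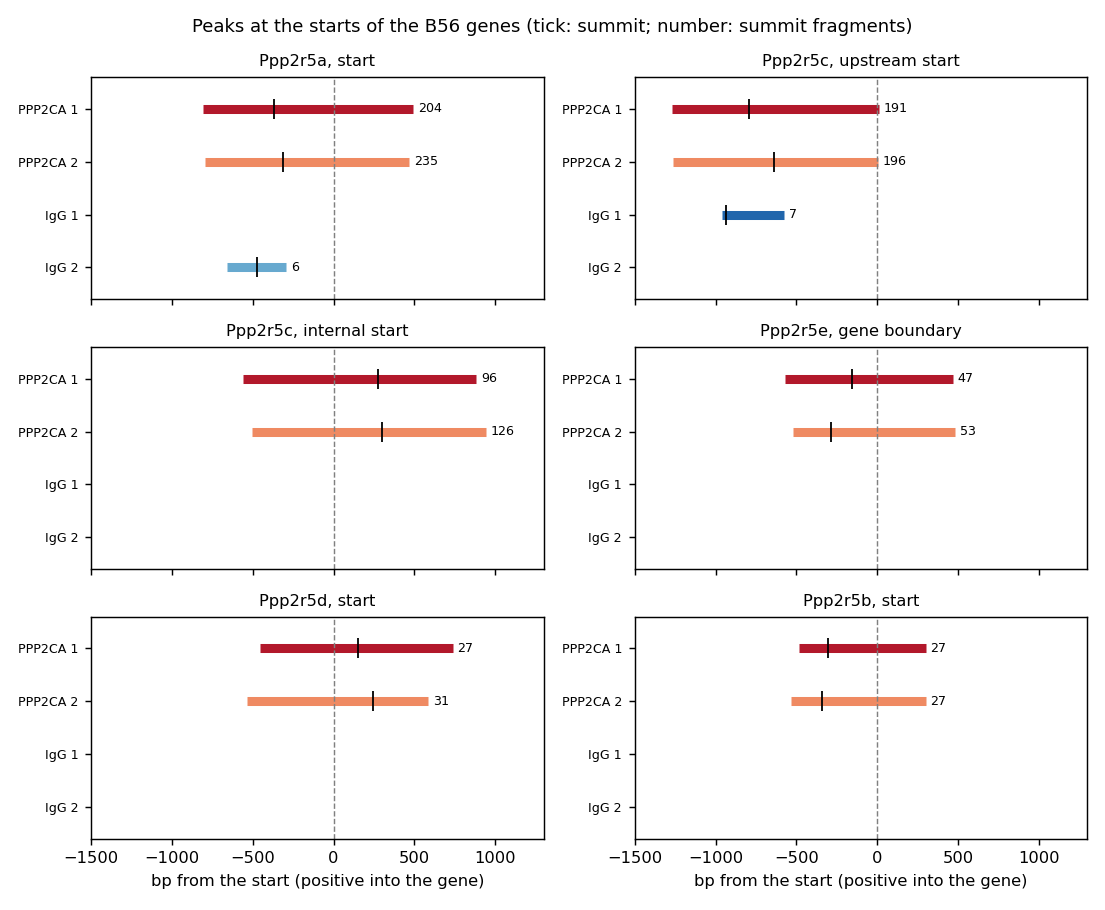
Extent of the called peaks at 6 marked places, in bp from the RefSeq start (for Ppp2r5e, from the gene boundary; positive into the gene), by library, with a tick at the summit and the summit fragments beside it. The PPP2CA peaks span the start in each panel (at Ppp2r5c, upstream start, with their right-hand edge), and IgG peaks appear at 2 places, with 6 and 7 fragments.

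Ppp2r5c also carried marked places inside the gene, 1 of them at a further annotated start. The gene is on chromosome 12 at 110447144 to 110583075, on the plus strand, and RefSeq gives many transcripts for it. Its first region, at 110446250 to 110447532, spanned the low-coordinate boundary, with summits 416 and 263 bp outside it. These summits lay 794 and 641 bp upstream of the upstream RefSeq start in PPP2CA 1 and 2, and the region reached that start only with its edge. That start, at 110447522, lies inside the outermost boundary of the gene. The sequence shown for it lies within the gene and does not hold the summits. The region at 110485237 to 110486737, (region 3) was the widest of all 8 at 1501 bp. It held 96 fragments in PPP2CA 1 and 126 in PPP2CA 2, with a fold of 9.65 and 10.4. This region covered the internal start of Ppp2r5c, 38.3 kb downstream of the upstream one, with summits 278 and 297 bp past that start.

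The upstream region was 1.99 times (95% exact interval 1.55 to 2.57) as high as the internal one in PPP2CA 1 and 1.56 times (1.24 to 1.96) in PPP2CA 2. The internal region alone ranked 770 of the 12631 replicated regions, ahead of the best region of Ppp2r5e (2003). Among 802 protein-coding genes with table starts 10 kb or more apart, 9.10% (73) had different replicated regions at 2 or more of their starts. The long noncoding RNA gene Gm19605, on the opposite strand, shares the internal region. Its RefSeq starts lay 439 and 458 bp to one side of the PPP2CA 1 and 2 summits and 110 and 91 bp to the other, so the mark cannot be assigned to a start of either gene.

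The 2 other replicated regions of Ppp2r5c were weak. That at 110454084 to 110454718 held 12 and 22 fragments in PPP2CA 1 and 2, and that at 110498765 to 110499423 held 20 and 17. They ranked 10792 and 11018 of the 12631 replicated regions. Summits of the first coincided in both libraries, while those of the last were 475 bp apart. PPP2CA 1 alone had a peak of 5 fragments at 110518941 to 110519360, and PPP2CA 2 alone had one of 21 fragments at 110503023 to 110503675.

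Having 4 or more replicated regions was rare, at 0.50% of all protein-coding genes (109 of 21779) and 2.70% (44 of 1632) of those at least as long as Ppp2r5c. Both weak regions were lost when each library had to reach a −log10 q of 5 or 20 summit fragments, which left 2 regions in the gene. Ppp2r5e, which is longer, had 1 replicated region. Of the 1632 genes of that length or more, 44.5% had at least 1.

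**Figure D4:**
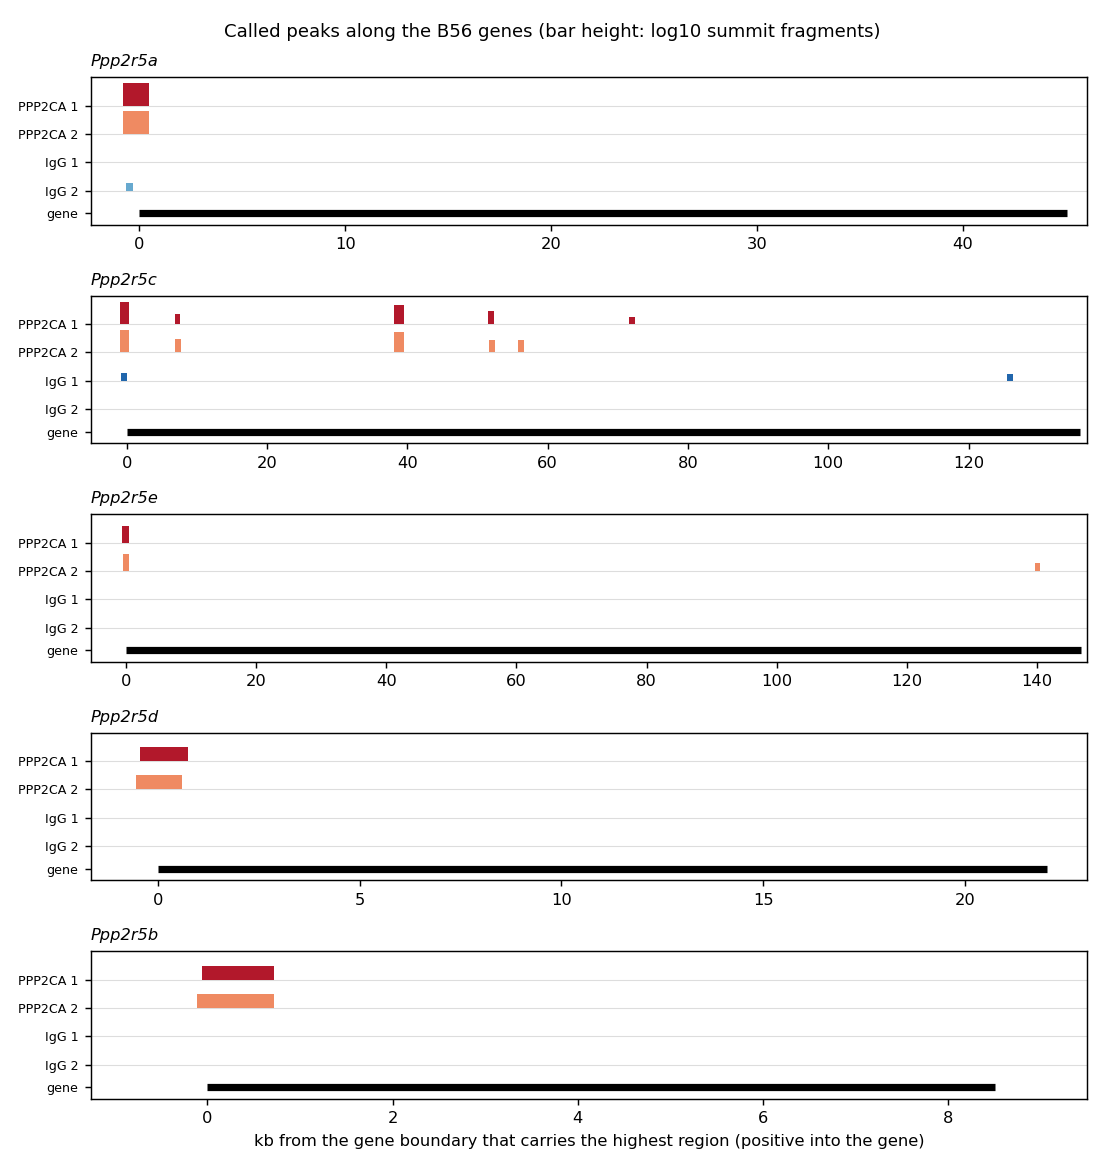
Called peaks of the 4 libraries along each B56 gene (black bar), in kb from the boundary with the highest region, with bar height on a log10 scale of summit fragments and narrow peaks drawn wider than they are. PPP2CA peaks lie at 1 end of each gene, and only Ppp2r5c has further replicated places inside.

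The control antibody was called at the 2 most strongly marked genes and at none of the other 3. In IgG 2 a peak at 191397336 to 191397697 lay in the Ppp2r5a region, with 6 fragments and a −log10 q of 2.13. In IgG 1 a peak at 110446563 to 110446945 lay in the upstream Ppp2r5c region, with 7 fragments and a −log10 q of 3.42. Neither place was called in the other IgG library. An IgG peak was present at 2.08% of protein-coding genes (452 of 21779), and 0.845% (184) had a replicated PPP2CA region with an IgG peak in it. Of all replicated regions, 1.53% (193 of 12631) had an IgG peak, and of those with 100 or more fragments in both PPP2CA libraries, 14.5% (125 of 864).

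PPP2CA exceeded IgG at both places when libraries were scaled by their lowest background. Over both PPP2CA libraries, Ppp2r5a held 439 fragments against the 6 of IgG 2, which is 3.85 times (95% exact interval 1.75 to 10.5) after scaling. The upstream region of Ppp2r5c held 387 fragments against the 7 of IgG 1, 2.93 times (1.41 to 7.33). Scaled by the local background of each peak instead, the ratios were 0.91 (0.415 to 2.49) and 0.662 (0.318 to 1.66), with intervals that span 1. The excess was thus seen with the lowest backgrounds only. Local backgrounds were higher at higher PPP2CA regions (in PPP2CA 1, 14.9 at Ppp2r5a and 2.73 at Ppp2r5d, with 204 and 27 summit fragments). Dividing by them can remove signal, so the local scaling cannot decide whether the antibodies differed here. Only the IgG library with a called peak entered each ratio.

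A signal equal with both antibodies would give 21.7 to 24.6 fragments in an IgG library at Ppp2r5a, 20.3 to 20.6 at the upstream start of Ppp2r5c and 10.2 to 13.2 at its internal start, by the lowest backgrounds. It would give 4.99 to 5.56 fragments at Ppp2r5e, 2.87 to 3.25 at Ppp2r5d and 2.81 to 2.89 at Ppp2r5b. The internal start of Ppp2r5c had no IgG peak in either library. All these expected values rest on scaling by the lowest backgrounds. By local backgrounds the ratio of PPP2CA to IgG was 0.91 at Ppp2r5a and 0.662 at the upstream start of Ppp2r5c. Whether the antibodies differed at the internal start was not tested. At Ppp2r5d and Ppp2r5b these values are at or near the lowest called IgG summit of 3 fragments, so a difference between the antibodies was not detectable by peak calls at this depth.

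IgG 1 had 1 more peak, at 110572946 to 110573213 in Ppp2r5c, 9.87 kb from its end, with 5 fragments. No PPP2CA peak was called there. Regions free of an IgG peak were found at 4 of the 5 genes, all but Ppp2r5a, against 45.3% of protein-coding genes. At Ppp2r5c these were the 3 regions inside the gene.

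The other genes of PP2A were chosen with earlier results of these data known. They were marked in 17 of 21 cases, against 45.9% of protein-coding genes. Their median was 96 summed fragments (25 to 302), against 61 over all marked protein-coding genes. Some of these regions are shared with a neighbouring gene, and the best one of Strn4 overlapped the neighbour Prkd2 and lay only within 1 kb of Strn4. Both catalytic genes and both scaffold genes had a replicated region, as did 2 of 4 B55 genes (Ppp2r2a and Ppp2r2d), 2 of 3 PR72 genes (Ppp2r3a and Ppp2r3c), all 3 striatin genes (Strn, Strn3 and Strn4) and 6 of 7 genes of activators, inhibitors and methylation enzymes (Ptpa, Ppme1, Lcmt1, Tiprl, Set and Cip2a). Ppp2r2b, Ppp2r2c, Ppp2r3d and Igbp1 had none. The best of them, Ppp2ca, had 138 and 164 fragments in PPP2CA 1 and 2, fewer than Ppp2r5a and the upstream start of Ppp2r5c in the same libraries.

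By height in the 2 PPP2CA libraries, the PP2A gene nearest to Ppp2r5e was Ppme1, the PP2A methylesterase gene, with 47 and 49 fragments. The nearest to Ppp2r5b was the scaffold gene Ppp2r1b (27 and 25), and the nearest to Ppp2r5d was the striatin gene Strn (24 and 31). The differences, as absolute log2 ratios summed over both libraries, were 0.11, 0.11 and 0.17. Ppp2r5a and Ppp2r5c had no close match, the nearest being Ppp2ca at 1.08 and 0.73.

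A list of known partners and substrates of B56 phosphatases also holds Ptpa and the regulators Ensa, Arpp19 and Mastl of the B55 forms. It was chosen with earlier results of these data known, so its count is no test of the partners as a group. It was marked in 19 of 20 cases, against the same 45.9% of protein-coding genes, with a median of 135 summed fragments (23 to 527) against 61. The exception was Bub1b, the gene of BubR1, which had 1 peak in each PPP2CA library that did not overlap. The best ranked were Ensa, an inhibitor of PP2A with B55 subunits, with 277 and 250 fragments, Gsk3b, a kinase of the Wnt pathway, with 184 and 243, and Ccng2, the gene of a cyclin that binds B56, with 119 and 150. The best regions of Ensa and Gsk3b also had an IgG peak. Sgo1, the shugoshin that holds a B56 phosphatase at centromeres, had 48 and 78 fragments.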

How the data were processed

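The authors deposited 1 narrowPeak list per library. Per the submitters' processing notes, the tools were MACS2, BWA and Trimmomatic, with ChIPseeker, HOMER and deepTools, and the build was GRCm38 (mm10); no role, version or setting is given. Each deposited peak carries a fold, the ratio of the summit to a local background, together with a −log10 p, a −log10 q and the position of the summit. The deposited score was not used. Use of IgG as a calling control is not stated in the labels, and the backgrounds were taken as those of each library itself.

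Fragments at each summit and the local background were recovered from the fold, taken as (fragments + 1) / (background + 1), and the −log10 p, taken as a Poisson tail. This gave whole numbers for 100% of peaks, the relative error never exceeding 8.8e-06. The recovery, overlaps and intervals were tested on simulated data. Intervals are exact conditional (Clopper-Pearson) at 95% and cover counting error only, since PCR copies are not independent molecules. Library totals were not used here. Overlap meant at least 1 bp.

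Genes and starts came from RefSeq tables of GRCm38.p6. Genes below 3 Mb on chromosomes other than Y were left out, and exon positions were not used. The genes and lists were chosen with earlier results of these data known. Named were all 5 B56 genes, each other PP2A gene, the nearest PP2A gene in height, genes sharing a region and the 3 best partners. Sgo1, Gm52314 and the marker genes were named besides. Computations used Python 3.11.15, numpy 2.4.6, scipy 1.17.1 and pandas 2.3.3.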

Additional observations from a re-analysis of the deposited data

How the results depend on the processing

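The 13 results were recomputed 106 times under alternatives of threshold, overlap, window, scaling and left-out library. Of these values, 89 stayed within 1.5 times the reported count or within the interval of the reported ratio. Some of the 89 could not change, since leaving out the IgG library that did not enter a ratio left that ratio the same. All 5 genes kept a replicated region under every alternative of threshold, overlap or window except that of summits within 100 bp. Under that rule Ppp2r5e lost its region and 4 genes were left. Ppp2r5c lost its upstream region there (summits 153 bp apart) and kept 2 of 4. With a PPP2CA library left out, any peak of the other counted as a region, so replication was not tested there. A reciprocal overlap of 50% left all 8 regions, and a flank of 5 kb gave Ppp2r5d 1 more region, 9 in all. Summits within 100 bp and windows of 1 kb around both gene boundaries each left 5 replicated regions at the B56 genes in place of 8. The number of protein-coding genes with a region was 6636 with 20 or more summit fragments and 6157 with summits within 100 bp. The count of B56 genes with an IgG peak, 2 as reported, was 0 with a −log10 q of 5 or more, 1 with the gene body alone and 1 without either IgG library in turn (1 to 1). PPP2CA over IgG was 0.91 in place of 3.85 at Ppp2r5a and 0.662 in place of 2.93 at Ppp2r5c when each peak was scaled by its own local background. That background was 14.1 to 16.4 fragments for PPP2CA and 0.349 to 0.389 for IgG at these places, and the lowest in each list was 0.784 and 0.80 for PPP2CA and 0.0839 and 0.0833 for IgG, so the PPP2CA counts were divided by relatively more. Leaving out a PPP2CA library gave 3.61 to 4.08 and 2.92 to 2.94. Without the IgG library that held its peak, neither ratio could be computed. No paired analysis was possible because each ratio rests on 1 IgG library and has no test; between libraries of the same number it was 4.08 (1.85 to 11.2) at Ppp2r5a and 2.92 (1.39 to 7.36) at Ppp2r5c. The IgG libraries, with 5 to 7 fragments at these genes, limit every statement on the control.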

Other observations

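Near the B56 genes, but more than 1 kb away from them, lay regions of neighbouring genes. A region overlapping Klhdc3 and Mea1 lay 601 to 633 bp beyond the 1 kb window of Ppp2r5d. It held 65 fragments in PPP2CA 1 and 78 in PPP2CA 2, more than the 27 and 31 at the start of Ppp2r5d itself. A region at Atg2a, 4226 bp beyond the window of Ppp2r5b, held 88 and 95 fragments, against 27 and 27 at Ppp2r5b. In PPP2CA 2 alone, a peak of 9 fragments at Gpha2 ended 66 bp beyond the window of Ppp2r5b.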
